A study of Mus musculus with 8 samples.

Results

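The respiratory chain and ATP synthase were followed here through 99 genes measured in ribosome-associated RNA of cortical PV+ interneurons. Members were taken by name: Nduf genes (complex I and its assembly factors), Uqcr genes (complex III), Cox4 to Cox8 genes (complex IV), Atp5 genes (complex V, the ATP synthase) and the protein-coding genes of mitochondrial DNA, written mt-. Of 105 genes with such a name, 99 had 10 or more counts in at least 5 of the 8 samples, 86 of them nuclear and 13 mitochondrially encoded, among 17495 genes that passed the same filter and 45706 in the count table. The 6 names that did not pass were the pseudogenes Atp5l-ps1, Atp5l-ps2, Atp5k-ps2 and Atp5l2-ps and the isoforms Cox7b2 and Cox8c. Nearest to that threshold were Cox4i2, kept with 7 to 21 counts per sample, and Cox7b2, left out with 2 to 14.

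All 8 samples came from mice of the genotype PvalbFlp/+;Neurod6Cre/+ that received at P1 an adeno-associated virus with a flox-fdio cassette under the neuronal hSyn promoter. Flp was driven by Pvalb and Cre by Neurod6, a gene of pyramidal neurons. The virus encodes a tagged ribosomal protein, HA-RPL10a, and myc-tagged hM3Dq, a receptor that excites the neuron when its ligand clozapine N-oxide (CNO) is given. The 4 CNO samples were from mice given CNO at 1 mg/kg in 5 injections over about 48 h, and the 4 vehicle samples were from mice with the same alleles and virus given vehicle, all at P42 to P70 by the series description, where the study's methods give P44 for the youngest. Each sample was a pool of infected cortex from 4 brains, from which tagged ribosomes were precipitated, so the vehicle group carried the receptor too, and p-values measure the spread between such pools. Total counts ran from 44064160 to 49413272 per sample, and levels are given as TPM, transcripts scaled by their length and to the same total in every sample.

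Oxidative phosphorylation passes electrons from NADH through complex I, or from succinate through complex II, to ubiquinone, then through complex III, cytochrome c and complex IV to oxygen. The proton gradient built on the way drives complex V to make ATP. Complexes I, III, IV and V are mosaics. A minority of their subunits, mostly in the membrane, are encoded in mitochondrial DNA, in complex III cytochrome b alone. Most subunits are products of nuclear genes, made in the cytosol and imported. Fast-spiking PV+ interneurons are known for a dense supply of mitochondria and high use of ATP. The mt- mRNAs are read by ribosomes inside mitochondria, which do not carry the HA-RPL10a tag, so in a precipitate of tagged ribosomes they gauge RNA that came along without being bound.

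The labelled cell type was checked on its markers. Pvalb, the calcium-buffering protein for which the cells are named, was at 1022, 820, 977 and 1160 TPM in CNO replicates 1 to 4 and at 300.1, 988, 1050 and 943 TPM in vehicle replicates 1 to 4. Vehicle replicate 1 therefore stood far below the other 7 samples, among which the groups overlapped. Slc17a7, the vesicular glutamate transporter of pyramidal neurons, was at 345, 493, 405 and 331 TPM with CNO and at 547, 441, 436 and 470 TPM with vehicle, highest in vehicle replicate 1. By normalised CPM, the scale of all such counts below, the 11 PV interneuron markers were all lowest in vehicle replicate 1 (on TPM, Erbb4 was lower in CNO replicate 2), and their summed TPM was 1218 there against 2546 to 3988 in the other samples, with Gad1 the most abundant. The 11 pyramidal markers summed to 2260 TPM in vehicle replicate 1 and to 1405 to 2140 TPM elsewhere, with Nrgn the most abundant. Markers of other cells were present at lower sums, 451.6 to 576.6 TPM for 7 astrocyte genes, 571 to 1032 TPM for 7 oligodendrocyte genes, 66.2 to 114 TPM for 7 microglial genes and 50.1 to 121 TPM for 9 endothelial and mural genes, and no marker of these lists was at 0 in any sample. The 7 markers of other interneurons summed to 308.7 to 463.5 TPM, with Lamp5 the most abundant. A marker index, the mean log2 CPM (counts scaled to library size) of the PV list minus that of the pyramidal list, was 1.73, 0.99, 1.52 and 2.18 with CNO and −0.10, 1.14, 1.58 and 1.46 with vehicle. In such bulk pools, fewer PV+ cells and less RNA per cell cannot be told apart.

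Fos, an immediate early gene used as a check that CNO acted, was at 36.9, 72.7, 51.3 and 83.7 TPM with CNO and at 18.1, 20.6, 13.8 and 15.7 TPM with vehicle, with no overlap (log2 fold change 1.93, SE 0.21; adjusted p = 0.052, edgeR quasi-likelihood test; exact two-sided permutation p = 0.0286, the smallest that 4 against 4 allows). It had the smallest p of all genes. Of the 8 activity genes listed, all had a log2 fold change above 0 (median 0.67). Fos, Fosb and Dusp1 were higher in every CNO sample, where 0.789% of all genes were. The other activity genes overlapped, down to Egr1 at 0.07 (SE 0.18). The summed TPM of the list overlapped as well. Its mean log2 CPM, in which each gene counts alike, did not, at 4.94 to 5.90 with CNO and 4.63 to 4.91 with vehicle.

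The nuclear members were abundant. Their TPM summed to 52488, 39868, 48855 and 56428 in CNO replicates 1 to 4 and to 24510, 48622, 49084 and 45406 in vehicle replicates 1 to 4. The median nuclear member had a mean of 481 TPM, against 13.4 TPM for the median gene tested. The highest was Atp5b, the catalytic beta subunit of ATP synthase, with a mean of 2243 TPM, followed by Ndufa4, a complex IV subunit named for complex I where it was first found, with 1628 TPM, and Cox8a with 1514 TPM. The lowest were the isoforms Cox4i2 at 1.14 TPM, Cox6b2 at 2.42 TPM and Ndufa4l2 at 3.09 TPM.

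By complex, the summed TPM in vehicle-treated mice was 14134 ± 3523 (SD, n = 4) for the 36 subunits of complex I, 4649 ± 1233 for 8 subunits of complex III, 11506 ± 3941 for 18 genes of complex IV and 10992 ± 2921 for 15 genes of complex V. In CNO-treated mice the same sums were 16375 ± 2151, 5496 ± 683, 14009 ± 2372 and 12866 ± 1827 (SD, n = 4). In every complex the CNO and vehicle samples overlapped, and vehicle replicate 1 alone accounted for the low end: complex IV stood at 5674 TPM there and at 10755 to 16160 TPM in the other 7 samples.

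**Figure D1:**
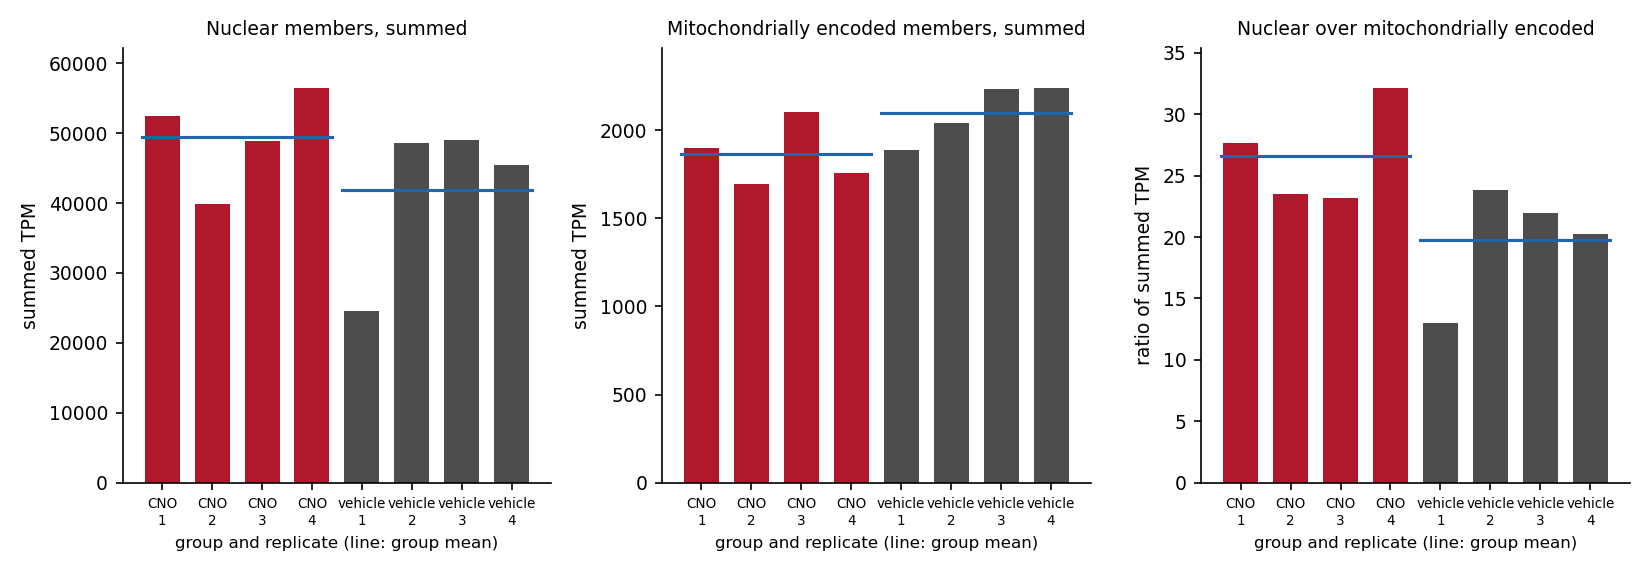
Summed TPM of the 86 nuclear members (left), of the 13 mitochondrially encoded members (middle) and their ratio (right) in each of the 8 samples; bars are samples and lines are group means. The nuclear sum was 24510 TPM in vehicle replicate 1 and 39868 or more elsewhere, whereas the mitochondrially encoded sum was 1885 TPM there, within the range of the other samples.

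Did activation change the nuclear respiratory chain genes? No member passed the test, and no gene among the 17495 did (adjusted p under 0.05, above 1.5-fold and above 1 TPM by the quasi-likelihood test; percent called 0.0). With the likelihood ratio test, 12 genes were called (0.0686%), and with DESeq2 10 (0.0572%), none of them a member. At an unadjusted p under 0.05, 716 genes (4.09%) stood out by the quasi-likelihood test, 252 higher (1.44%) and 464 lower (2.65%) with CNO, and the nuclear members supplied 0 of them. Yet 84 of 86 nuclear members had a log2 fold change above 0, where 50.4% of all genes did. The median over the 86 was 0.29, against 0.00 over all genes, and the median SE of a member was 0.23. No nuclear member had groups that did not overlap, where 138 genes (0.789%) were higher and 285 (1.63%) lower in every CNO sample.

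This lean rested mostly on 1 library. Vehicle replicate 1 was the lowest of the 8 samples in 83 of 86 nuclear members, against 30.4% of all genes, and lay a median of 1.09 log2 units below the mean of the other vehicle samples. CNO replicate 4 was the highest in 74 of 86, against 22.9% of all genes. Without vehicle replicate 1 the median log2 fold change was 0.09, with 82 of 86 still above 0, and with the marker index as a term in the model it was −0.02, with 26 of 86 above 0. The median deviation of the nuclear members from their mean over 8 samples was 0.27, −0.19, 0.21 and 0.42 with CNO and −0.99, 0.14, 0.17 and −0.02 with vehicle. All 11 PV markers had a log2 fold change above 0 (median 0.40, or 0.20 without vehicle replicate 1), where 1 of 11 pyramidal markers (median −0.13), 0 of 7 oligodendrocyte markers (−0.23), 0 of 7 microglial markers (−0.19), 2 of 7 astrocyte markers (−0.10), 2 of 7 markers of other interneurons (−0.18) and 8 of 9 endothelial and mural markers (0.28) did. Their part in the nuclear values was not tested beyond the marker index. Beside the marker index given above, the samples with the 2 lowest values, vehicle replicate 1 and CNO replicate 2, and the one with the highest, CNO replicate 4, were the same on both scales. Malat1, an abundant nuclear noncoding RNA, was at 31490 TPM in vehicle replicate 1 and at 12152 to 19069 TPM elsewhere (log2 fold change −0.41, SE 0.20; edgeR adjusted p = 0.817). The list of 8 such RNAs, of which Malat1 is by far the most abundant, summed to 32616 TPM in that library and to 13040 to 20088 TPM elsewhere, but its mean log2 CPM, in which each gene counts alike, was 7.15 both there and in CNO replicate 2, and 3 of 8 had a log2 fold change above 0. Vehicle replicate 1 also had the largest share of counts on just 2 genes, Trp53bp1 and Bcar1 (chosen after their values were seen), 28.3% against 17.6% to 23.8% elsewhere, and the part of these RNAs in the result was not tested.

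**Figure D2:**
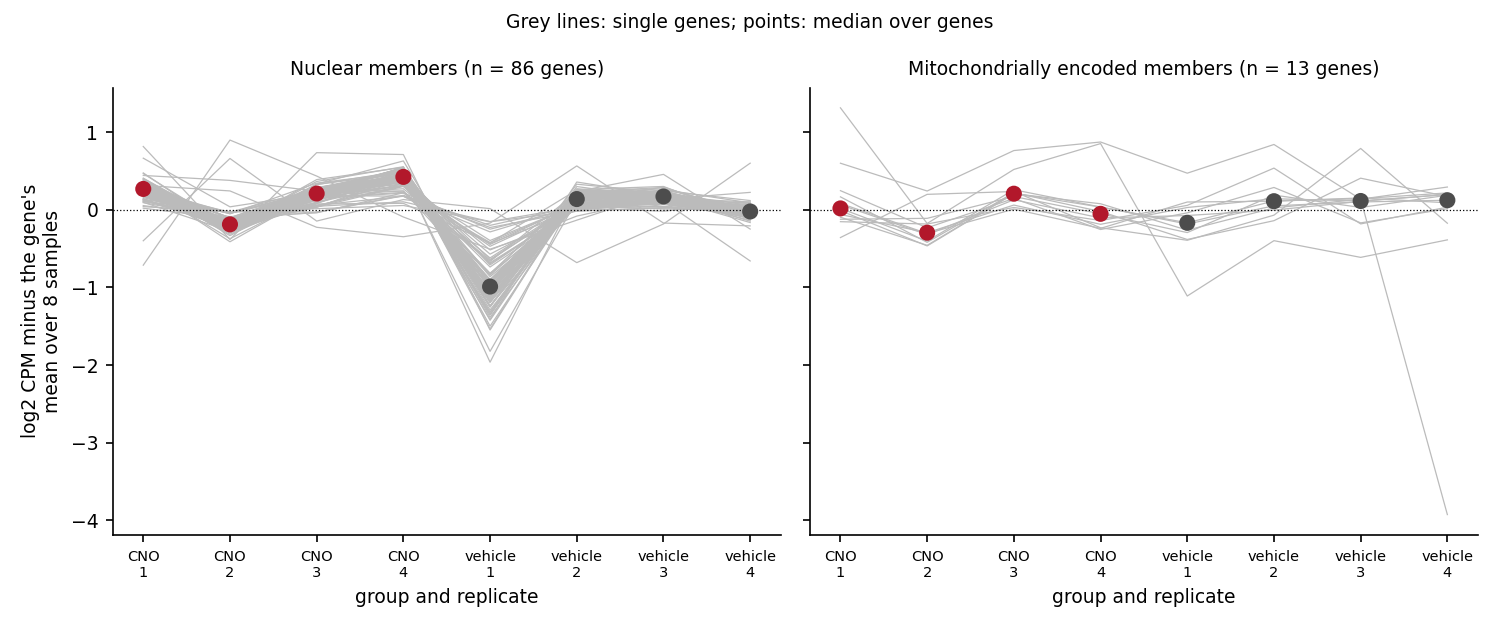
Log2 CPM of each member minus its own mean over the 8 samples, for nuclear (left) and mitochondrially encoded members (right); grey lines are genes and points are medians over genes, red for CNO and dark grey for vehicle. The nuclear lines fall together in vehicle replicate 1 (median −0.99), the mitochondrially encoded ones fall less (median −0.17), and the line that drops in vehicle replicate 4 is mt-Nd4l.

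In complex I, 36 of 36 nuclear subunits had a log2 fold change above 0, with a median of 0.28 and a range from 0.06 to 0.44. At the low end was Ndufs1, the largest subunit, which carries iron–sulfur clusters of the NADH-oxidising arm, at 241, 226, 221 and 245 TPM with CNO and 225, 233, 236 and 255 TPM with vehicle. Its groups overlapped and it barely shared the drop in vehicle replicate 1 (log2 fold change 0.06, SE 0.11; edgeR adjusted p = 0.889). Ndufv1, the flavin-bearing subunit that takes electrons from NADH, was at 440, 412, 413 and 479 TPM with CNO and 344, 433, 432 and 425 TPM with vehicle. Vehicle replicate 1 lay below the rest, which ran from 412 to 479 TPM (log2 fold change 0.17, SE 0.14; edgeR adjusted p = 0.817).

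The accessory subunits Ndufs6 and Ndufa5 varied more from sample to sample than Ndufs1 and Ndufv1. Ndufs6, a zinc-binding subunit needed for assembly, had the largest fold change among the nuclear subunits of complex I. It was at 339, 239, 339 and 418 TPM with CNO and at 134, 290.4, 319 and 294 TPM with vehicle. CNO replicate 2 fell below 3 of the vehicle samples (log2 fold change 0.44, SE 0.28; edgeR adjusted p = 0.817). Among the same nuclear subunits, Ndufa5 had the smallest p (edgeR unadjusted p = 0.112, adjusted p = 0.817). Its values were 572, 499, 562 and 584 TPM with CNO against 269, 512, 547 and 458 TPM with vehicle (log2 fold change 0.35, SE 0.20). Of the other genes of the 10 smallest p, Ndufab1, the mitochondrial acyl carrier protein, was at 931 against 756 TPM on average, and Ndufs3, of which 22.8% of the sequence also occurs in other genes, was at 317 against 282 TPM. The 7 complex I assembly factors named Ndufaf, which are not part of the finished enzyme, ranged from −0.03 (Ndufaf6, named after its values were seen) to 0.28 and had a median of 0.11.

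In complex III, 8 of 8 nuclear subunits were above 0, with a median of 0.33. Uqcrfs1, the Rieske iron–sulfur protein, was at 342, 252, 297 and 358 TPM with CNO and at 168, 292, 302 and 289.7 TPM with vehicle. Vehicle replicate 1 was lowest and CNO replicate 2 next (log2 fold change 0.32, SE 0.21; edgeR adjusted p = 0.817). Uqcrq, a small subunit beside cytochrome b, was at 1075, 842, 1016 and 1115 TPM with CNO and at 439, 981, 977 and 821 TPM with vehicle (log2 fold change 0.37, SE 0.23; edgeR adjusted p = 0.817). Uqcrh, the acidic hinge protein, had 0.41 (SE 0.27). Of the core proteins, Uqcrc1 had 0.21 (SE 0.17), and Uqcrc2, named after its values were seen, was at 499, 491, 512 and 522 TPM with CNO and at 505, 531, 527 and 522 TPM with vehicle, level in all 8 samples (log2 fold change 0.03, SE 0.10; edgeR adjusted p = 0.949).

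In complex IV, 17 of 18 nuclear genes were above 0, with a median of 0.35, the exception being the low-level isoform Cox6b2 at −0.02 (SE 0.34). Cox5a, which sits on the matrix side, was at 1400.1, 879.7, 1182 and 1439 TPM with CNO and at 439, 1125, 1179 and 1140 TPM with vehicle. Vehicle replicate 1 stood far below the other vehicle samples, and CNO replicate 2 next (log2 fold change 0.40, SE 0.30; edgeR adjusted p = 0.817). Cox7c, with 24.5% of its sequence shared with other genes, was at 821 TPM with CNO and 688 TPM with vehicle on average (log2 fold change 0.31, SE 0.21). In complex V, 15 of 15 genes were above 0, with a median of 0.28 and a narrow range from 0.20 to 0.38. Atp5b was at 2456, 2051, 2306 and 2664 TPM with CNO and at 1515, 2348, 2384 and 2223 TPM with vehicle (log2 fold change 0.24, SE 0.20; edgeR adjusted p = 0.817). Its partner Atp5a1, the alpha subunit, was at 1018 ± 152 TPM with CNO and 894 ± 186 TPM with vehicle (SD, n = 4; log2 fold change 0.25, SE 0.20). Atp5s and Atp5sl carry the family name but are not subunits of the synthase, and had 0.28 (SE 0.17) and 0.13 (SE 0.14).

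**Figure D3:**
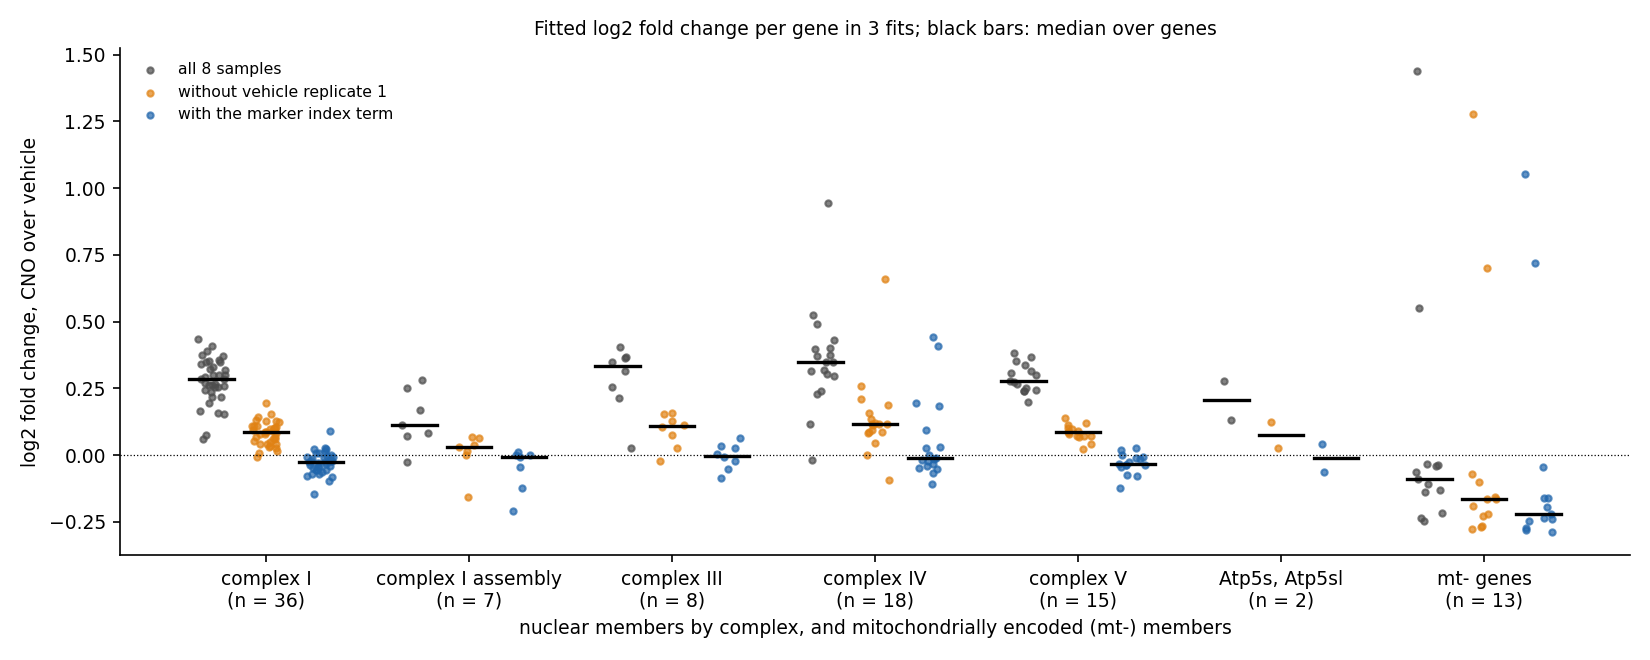
Log2 fold change, CNO over vehicle, of each member by complex in 3 fits: all 8 samples (grey), without vehicle replicate 1 (orange) and with the marker index as a model term (blue); points are genes and bars are medians over genes. In all 8 samples the complex medians ran from 0.11 to 0.35, without vehicle replicate 1 from 0.03 to 0.12, and with the marker index all were just below 0, while most mt- genes stayed below 0 in all 3 fits.

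The drop in vehicle replicate 1 was not the same for all nuclear members, and it moved with transcript length. In the 40 members whose longest annotated transcript was under 1000 bases the median difference from the other vehicle samples was −1.23 log2 units, in the 27 from 1000 to 2000 bases −0.93, and in the 19 of 2000 bases or more −0.79. Across the 86 genes Spearman's rho between length and that difference was 0.42, and across all genes 0.12. With the length behind the TPM in place of the longest transcript, rho was 0.57 and 0.13. All are given as descriptions of genes that share 1 library. Over all genes the medians of the same length classes were −0.21, −0.13 and 0.00, so the short members lay far below other short genes. The part of RNA fragment size in this was not tested.

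Several complex IV subunits and the ATP synthase c-subunit exist as alternative isoforms, which were unevenly represented in the precipitates. The pools also held RNA of other cells, and the shares were not assigned to a cell type. For subunits 4, 6b, 7b and the Ndufa4 pair the ubiquitous gene took 99% or more of the TPM in every sample: Cox4i1 99.8% to 99.96%, Cox6b1 99.6% to 99.9%, Cox7b 99.4% to 99.9% and Ndufa4 99.6% to 99.9%. Cox6a2, known as the isoform of heart and skeletal muscle, was present at 180.1, 123, 129.6 and 151 TPM with CNO and at 36.4, 125, 126 and 145 TPM with vehicle. Vehicle replicate 1 differed from the other vehicle samples by −1.98 log2 units (log2 fold change 0.49, SE 0.35; edgeR adjusted p = 0.817). Its share of the Cox6a TPM was 9.61% ± 1.21 with CNO and 8.44% ± 1.84 with vehicle (SD, n = 4).

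Cox8b, another muscle isoform, was at 25.0, 24.1, 20.8 and 25.0 TPM with CNO and at 4.98, 20.5, 25.3 and 17.1 TPM with vehicle. Its difference in vehicle replicate 1, −2.11 log2 units, was the largest of all nuclear members, and its share of the Cox8 TPM was 0.67% to 1.85%. Cox7a1, the muscle isoform of subunit 7a, had the largest fold change and the smallest p of the nuclear members: 7.56, 3.04, 6.88 and 6.92 TPM with CNO and 1.23, 4.60, 4.46 and 2.69 TPM with vehicle. Of the CNO samples, 3 were above all vehicle samples and replicate 2 lay among them (log2 fold change 0.95, SE 0.46; unadjusted p = 0.0631, edgeR adjusted p = 0.817; exact permutation p = 0.0857). At a share of 0.31% to 0.81% of the Cox7a TPM, it remained minor beside Cox7a2 at 72.05% to 78.0% and Cox7a2l, which acts in supercomplex assembly, at 21.2% to 27.6%. These muscle isoforms were thus low beside their partners and lowest in vehicle replicate 1, where Cox8b and Cox6a2 lay farther below the other vehicle samples than any other nuclear member. The c-ring genes Atp5g1, Atp5g2 and Atp5g3, which encode the same mature protein, took medians of 41.6%, 9.92% and 48.4% of their TPM, although 40.2% of the Atp5g2 sequence also occurs in other genes, chiefly the pseudogene Gm10175.

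**Figure D4:**
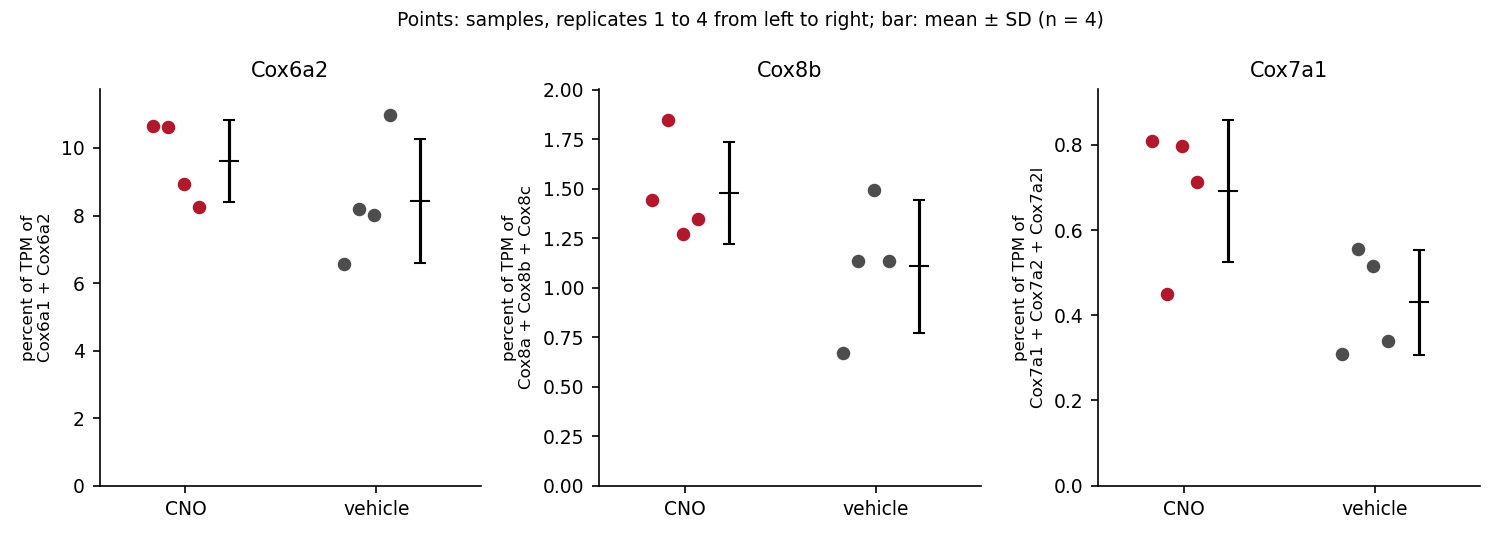
Share of the isoform group's TPM taken by the muscle-type isoforms Cox6a2, Cox8b and Cox7a1; points are samples, bars are mean ± SD (n = 4). The lowest vehicle point of each panel is vehicle replicate 1, and CNO and vehicle overlap in all 3 panels.

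The 13 mitochondrially encoded members were scarce beside the nuclear ones. They took 0.0639%, 0.0537%, 0.0686% and 0.0582% of counts with CNO and 0.0581%, 0.0704%, 0.0739% and 0.0719% with vehicle, where the nuclear members took 1.51%, 1.16%, 1.38% and 1.63% with CNO and 0.755%, 1.47%, 1.42% and 1.29% with vehicle. Wilson 95% binomial intervals, which cover counting error only, reached from 0.0531% to 0.0747% for the lowest and highest mt- share. By TPM the mt- genes summed to 1863 ± 182 with CNO and 2099 ± 170 with vehicle (SD, n = 4), and the nuclear sum was 27.7, 23.5, 23.2 and 32.1 times the mt- sum with CNO and 13.003, 23.8, 22.0 and 20.3 times with vehicle. The groups overlapped, and the low ratio of vehicle replicate 1 came from the nuclear side, since its mt- sum of 1885 TPM, the lowest of the vehicle samples, lay within the range of the other 7.

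Among the mt- genes the highest was mt-Co3, a core subunit of complex IV, at 437 ± 71.2 TPM with CNO and 472 ± 97.7 TPM with vehicle. mt-Atp6, the proton channel subunit of ATP synthase, followed at 331 ± 28.3 and 365 ± 46.1 TPM, and mt-Co1, which holds the oxygen-reducing site, at 186 ± 20.9 and 211 ± 15.7 TPM. mt-Co2, which receives electrons from cytochrome c, was at 184 ± 40.8 and 210.2 ± 75.6 TPM, mt-Cytb, the core of complex III, at 122 ± 19.3 and 141 ± 12.6 TPM, and mt-Atp8 at 99.7 ± 6.01 and 127 ± 20.7 TPM (all SD, n = 4). For comparison, nuclear Cox4i1 stood at 1491 TPM with CNO and 1260 TPM with vehicle.

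The mt- genes leaned the other way from the nuclear ones: 11 of 13 had a log2 fold change below 0, with a median of −0.09. Without vehicle replicate 1 the median was −0.17 and with the marker index −0.22, in both cases with 11 of 13 below 0, whereas without CNO replicate 2 it was −0.03, with 7 of 13 below 0. Vehicle replicate 1 was the lowest sample in 3 of 13, against 30.4% of all genes, but lay below the mean of the other vehicle samples in 12 of 13, by a median of −0.28 log2 units where the nuclear median was −1.09. Unadjusted p-values under 0.05 were found for 2, mt-Nd3 and mt-Nd1, against 4.09% of all genes, and none passed the adjusted test.

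mt-Nd1, a membrane subunit of complex I (mouse GRCm38, chromosome M, 2751 to 3707, plus strand), was at 169, 153, 182 and 151 TPM with CNO and at 203, 201, 193 and 218 TPM with vehicle. On the TPM scale every CNO sample lay below every vehicle sample, while on normalised CPM the groups overlapped (log2 fold change −0.24, SE 0.10; unadjusted p = 0.0332, edgeR adjusted p = 0.817; exact permutation p = 0.0571). None of its sequence was shared with another annotated gene. mt-Nd5 (chromosome M, 11742 to 13565, plus strand) was at 92.9, 76.6, 88.0 and 72.0 TPM with CNO and at 106, 99.3, 98.7 and 99.7 TPM with vehicle. By CPM it was lower in every CNO sample, 1 of 99 members where 1.63% of all genes were, a share no higher than the background (log2 fold change −0.22, SE 0.10; unadjusted p = 0.0569, edgeR adjusted p = 0.817; exact permutation p = 0.0286, the smallest possible). The end of mt-Nd5 overlaps mt-Nd6 (13552 to 14070, minus strand), the only mt- member on the other strand, and no strand-aware counting is stated in the sources used here, so reads in the overlap cannot be told apart. mt-Nd2, mt-Nd4 and mt-Nd6 had −0.03 (SE 0.14), −0.09 (SE 0.16) and −0.04 (SE 0.15).

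mt-Nd3, another membrane subunit of complex I (chromosome M, 9459 to 9806, plus strand), had the largest fold change of all members: 14.9, 5.07, 7.96 and 10.6 TPM with CNO and 2.67, 3.84, 3.404 and 4.77 TPM with vehicle. Every CNO sample was higher, likewise in 1 of 99 members where 0.789% of all genes were (log2 fold change 1.44, SE 0.38; unadjusted p = 0.00288, edgeR adjusted p = 0.817; exact permutation p = 0.0286). These values stood on 193 counts in all 8 samples. Chromosome 1 holds a stretch of mitochondrial DNA inserted in the nuclear genome (GRCm38, 24611535 to 24616197, minus strand) that is annotated as 7 pseudogenes, and 1 of them, Gm28438, is a copy of mt-Nd3. The first 61 bases of the pair are shown because they hold the only difference found between the genes, with that base in capitals.
mt-Nd3: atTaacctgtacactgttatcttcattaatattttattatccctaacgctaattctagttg
Gm28438: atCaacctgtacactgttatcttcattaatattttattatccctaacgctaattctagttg

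Counted from the first base of mt-Nd3, the 345 bases compared differed by T3C alone, and reads that do not cover this base cannot be assigned by sequence. Gm28438 held 88.0% of the counts of the pair: 155.0, 139.6, 178.3 and 156.7 estimated counts with CNO and 93.1, 251.4, 205.4 and 236.8 with vehicle, against 54, 18, 30 and 39 and then 8, 15, 13 and 16 on mt-Nd3 itself. Summed over the pair the counts were 209, 158, 208 and 196 with CNO and 101, 266, 218 and 253 with vehicle. The groups then overlapped, and the log2 fold change turned from 1.44 to −0.11 (SE 0.25; unadjusted p = 0.682; exact permutation p = 0.943).

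The other copies in the block were named after their values were seen. No difference was found over the 681 bases shared by mt-Co2 and Gm28661, the 678 of mt-Atp6 and Gm10925, the 783 of mt-Co3 and Gm28437, the 294 of mt-Nd4l and Gm10222 and the 876 of mt-Nd4 and Gm28439, and 6 differences over the 492 of mt-Co1 and Gm29216. The split of counts between such pairs was uneven in some and steady in others. Gm28439 was at 0 in all 8 samples, and Gm29216, the copy with the most counts, stood at 2858.1 to 3814.7. In contrast, Gm28661 was at 0 in CNO replicate 2 and vehicle replicate 3 and at 846.7 to 1700.3 elsewhere, and Gm10925 was at 0 in CNO replicate 2 and at 426.0 to 1012.4 elsewhere. mt-Nd4l had 32 to 54 counts in 7 samples and 0 in vehicle replicate 4, where Gm10222 had 46 and had 0 in all the others. Its log2 fold change went from 0.55 (SE 0.67) alone to 0.11 (SE 0.25) summed with the copy. Of the 13 mt- genes, mt-Nd3 alone changed sign when its copies were added. With all copies added to their mt- genes, the median over the 13 was −0.11, 12 of 13 were below 0, and the mt- share of counts rose to 0.0745% with CNO and 0.0849% with vehicle on average. The nuclear TPM sum was then 19.1, 17.3, 16.3 and 22.4 times the mt- sum with CNO and 8.71, 15.8, 16.8 and 13.8 times with vehicle.

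**Figure D5:**
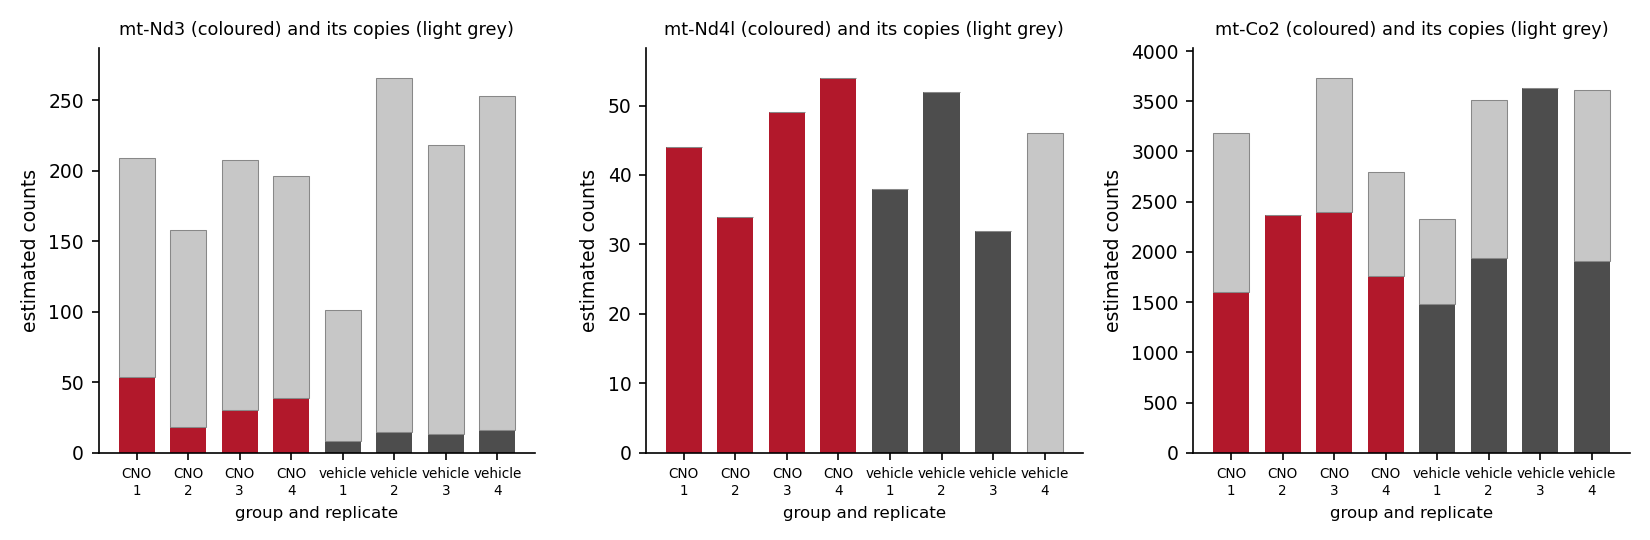
Estimated counts per sample of mt-Nd3, mt-Nd4l and mt-Co2 (red for CNO, dark grey for vehicle) with those of their nuclear copies stacked above (light grey). The split between gene and copy varies from sample to sample, to the point that mt-Nd4l is at 0 in vehicle replicate 4, where its copy holds all 46 counts.

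The rest of the pathway, taken from lists of genes outside the naming rule, had mostly positive fold changes as well, again without a call. Of the 8 genes of complex II and its assembly, 8 were above 0 with a median log2 fold change of 0.28, and none had an unadjusted p under 0.05. The median was 0.11 without vehicle replicate 1 and −0.0030 with the marker index, when 2 of 8 were above 0. Sdha, its flavoprotein, was the most level at 454 ± 20.4 TPM with CNO and 465 ± 17.7 TPM with vehicle (SD, n = 4; log2 fold change 0.08, SE 0.13). Of 16 electron carriers and ubiquinone synthesis genes, 14 were above 0 with a median of 0.11 (0.05 without vehicle replicate 1, and 7 of 16 above 0 with the marker index). Cycs, cytochrome c, was at 539, 410.3, 521 and 565 TPM with CNO and at 222, 495, 472 and 439 TPM with vehicle, low in vehicle replicate 1 and next in CNO replicate 2 (log2 fold change 0.40, SE 0.26; edgeR adjusted p = 0.817).

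Of 41 assembly factors outside the rule, 35 were above 0 with a median of 0.13 (0.05 without vehicle replicate 1, and 18 of 41 above 0 with the marker index). An unadjusted p under 0.05 was found for 1 of the 41, where 4.09% of all genes had one, a share no higher than the background. That gene was Lyrm7, a chaperone that inserts Uqcrfs1 into complex III. It was at 19.5, 13.2, 30.7 and 34.1 TPM with CNO and at 12.4, 16.8, 20.1 and 13.6 TPM with vehicle. Replicates 3 and 4 of the CNO group stood above all vehicle samples and replicates 1 and 2 did not (log2 fold change 0.72, SE 0.31; unadjusted p = 0.0415, edgeR adjusted p = 0.817). The 8 tested ADP/ATP and phosphate carriers, porins and partners were all above 0 (median 0.21), from Slc25a3, the phosphate carrier, at 0.08 (SE 0.10) to Slc25a5 at 0.31 (SE 0.24), and the median was 0.07 without vehicle replicate 1, with 3 of 8 above 0 under the marker index. The 77 mitochondrial ribosomal proteins, a list added after the values were seen, had a median of 0.17 with 74 above 0, and vehicle replicate 1 was lowest in 69. Without that library their median was 0.06 with 61 of 77 above 0, and with the marker index 35 of 77 were above 0.

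The genes that keep and transcribe mitochondrial DNA were evenly split: 14 of 28 were above 0, the median was 0.00, and vehicle replicate 1 was lowest in 9. Tfam, which packages and activates mitochondrial DNA, was at 47.3 ± 6.79 TPM with CNO and 48.4 ± 6.68 TPM with vehicle (SD, n = 4; log2 fold change 0.04, SE 0.15). Of 13 transcriptional regulators of mitochondrial genes, 9 were above 0 with a median of 0.07. Ppargc1a, the coactivator of mitochondrial biogenesis, was at 115, 82.3, 100.04 and 127 TPM with CNO and at 56.6, 93.0, 102 and 100.2 TPM with vehicle. It was lowest in vehicle replicate 1 and next in CNO replicate 2 (log2 fold change 0.35, SE 0.22; edgeR adjusted p = 0.817). Its partners, the orphan receptors Esrra and Esrrg, had 0.38 (SE 0.19) and 0.51 (SE 0.29), and Nrf1 and Gabpa had −0.09 (SE 0.11) and 0.03 (SE 0.09).

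The promoters of the nuclear members were searched for the motifs of 4 regulators known to act on respiratory genes. The search covered both strands of 250 bases before to 50 after the annotated start (RefSeq sequences, GRCm38.p6). The part of these motifs in the differences between samples was not tested. Of the 86 nuclear members 69 matched a promoter by symbol. The NRF1 motif GCGCATGCG was found in 10 of 69 (14.5%), against 3.69% of the tested genes with a promoter and 1.95% of all promoters. The YY1 motif AAGATGGCG was found in 7 (10.1%, against 3.09% and 1.64%), the ERR motif CAAGGTCA in 3 (4.35%, against 1.44% and 1.76%) and the GABP motif CCGGAAGT in 5 (7.25%, against 7.90% and 4.31%). GCGCATGCG overlaps its own reverse complement, so the same site can match on both strands, and a match describes letters in a window, not a bound site. Sites of 3 factors are shown with the motif in capitals on the gene's strand, 5′ to 3′, to show the letters that the members hold.
Cox6a1, NRF1, chr5:115349102-115349130, minus strand: caggaacgggGCGCATGCGcgctctcgct
Atp5g2, NRF1, chr15:102671071-102671099, minus strand: ggctccggccGCGCATGCGcagagccttc
Ndufa11, NRF1, chr17:56717692-56717720, plus strand: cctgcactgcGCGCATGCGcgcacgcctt
Atp5j, YY1, chr16:84835046-84835074, minus strand: aagtgtaggaAAGATGGCGgagtcttagc
Atp5g3, ERR on the opposite strand, chr2:73911361-73911388, minus strand: tgttacaaagTGACCTTGagcgtcttcc

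Of these genes, Cox6a1 had a log2 fold change of 0.35 (SE 0.30), Atp5g2 0.24 (SE 0.25), Ndufa11 0.29 (SE 0.27), Atp5j 0.24 (SE 0.17) and Atp5g3 0.30 (SE 0.22), and none of them passed the test.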

How the data were processed

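The members and gene lists were chosen with earlier results of these data known. The deposited estimated counts and TPM values per gene were made by the authors: paired-end reads of SMARTer Ultra Low libraries were checked with FastQC, trimmed with Trim Galore, aligned with STAR to GRCm38/mm10 and quantified with Salmon; versions are not given in the sources used here. Another deposited file pairs gene identifiers with names. The expected counts were rounded to whole numbers and fitted with edgeR 4.0.16 (glmQLFit and glmQLFTest, TMM; limma 3.58.1, R 4.3.3) over 17495 genes with 10 or more counts in at least 5 of 8 samples, with Benjamini-Hochberg adjustment over all of them. The threshold for a call was 0.05 on the adjusted p, with more than a 1.5-fold change and more than 1 TPM on average. The likelihood ratio test with robust dispersions, also from edgeR, and DESeq2 1.42.0 were run as alternatives. Fold changes are CNO over vehicle. Log2 CPM used a prior count of 2. Exact two-sided permutation tests of log2 CPM ran over all 70 assignments. The biological coefficient of variation from the common dispersion over all genes was 0.183. A floor of 3 counts corresponded to 0.0607 to 0.0681 CPM.

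Genes printed in detail were chosen by rule: all mt- members, isoform groups, core subunits, the 10 nuclear members with the smallest p, the 3 highest and 3 lowest by TPM, and members of the lists; any other gene was named with its values known. One gene of the core subunits is not reported here. Shared sequence was taken as 31-base words of GENCODE release M21 transcripts found in other genes. The fitting steps were tested on simulated counts. Replicates of a group differed by far more than sampling noise.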

Additional observations from a re-analysis of the deposited data

Results flagged for a closer look

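For the genes described in detail and the summed levels, shares and medians per sample, the CNO and the vehicle group were each searched for a sample lying apart from the other 3 by Dixon's 95% criterion. Chance gives such a sample in about 1 in 20 single groups, but these groups shared the same 8 samples and were not independent. Of the 110 groups, 21 held such a sample. Most were vehicle replicate 1, low in the marker Pvalb (300.1 TPM), in complex I subunits Ndufv1 (344 TPM) and Ndufs6 (134 TPM), in complex III subunits Uqcrfs1 (168 TPM) and Uqcrc1 (491 TPM), in complex IV subunits Cox5a (439 TPM) and Cox7a2 (287 TPM), and in Atp5a1 of the ATP synthase (615 TPM). Among genes outside the naming rule it was low in the ATP synthase inhibitor Atpif1 (859 TPM) and in Tfam (38.4 TPM).

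The summed levels of vehicle replicate 1 lay apart as well. They were 24510 TPM for all nuclear members, 8891 TPM for complex I, 353 TPM for the complex I assembly factors, 2820 TPM for complex III, 5674 TPM for complex IV and 6648 TPM for complex V. Its median deviation was −0.99 log2 units over the nuclear members and −0.17 over the mitochondrially encoded ones. In mt-Nd5 the same library lay apart on the high side, at 106 TPM against 98.7 to 99.7 TPM in the other vehicle samples. In a separate count over all 86 nuclear members, described in detail or not, 36 had an outlying vehicle sample, vehicle replicate 1 in 35 of them, and 4 had an outlying CNO sample.

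CNO replicate 2 lay apart from the other CNO samples in Cox7a1 (3.04 TPM) and Ndufaf6 (28.3 TPM), low in both.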

How the results depend on the processing

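No member was called under any of the alternatives that were run. Over all genes 0 were called, against 4 with no filter on low counts, 12 with the likelihood ratio test, 10 with DESeq2, 3 with a term for replicates 1 and 2 against 3 and 4, and 0 to 2 when single replicates were left out (2 without CNO replicate 1); the cause was not tested. The nuclear median of 0.29 ranged from 0.09 (without vehicle replicate 1) to 0.40 with single replicates left out and turned to −0.0212 with the marker index in the model. With the index the log2 fold change turned sign for Cox5a (−0.0335), Ndufs3 (−0.0079), Atp5g1 (−0.0348), Atp5g3 (−0.0248), Cox7a2l (−0.0535), Atp5b (−0.0365), Atp5a1 (−0.0360), Uqcrc1 (−0.0211), Ndufs1 (−0.0578), Ndufa4 (−0.0213), Cox7b (−0.00085), Cox4i1 (−0.0471), Cox7a2 (−0.0187), Cox8a (−0.11), Cox6b1 (−0.0407), Ndufv1 (−0.0265), Cox6a1 (−0.0679) and Atp5g2 (−0.12). mt-Nd3 turned to −0.11 with its nuclear copies summed, and mt-Co2 ranged from −0.27 to 0.19 with single replicates left out, the latter without vehicle replicate 3. The median of the mitochondrially encoded genes ranged from −0.22 to −0.03. Of 933 values of 46 single genes, the other 913 kept their direction, or turned by less than 1 SE, and none passed the threshold.

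The replicate numbers were not used to pair the samples in the main test. Same-numbered samples correlated in their deviations at 0.03, −0.03, 0.16 and 0.24, and CNO replicate 2 correlated best with vehicle replicate 1 (0.43). Such correlations cannot settle whether samples were prepared in pairs. With the replicate number as a block, 0 genes were called, and the medians were 0.33 for the nuclear and −0.08 for the mitochondrially encoded genes. Summing copies was chosen after seeing the data. At 193 counts for mt-Nd3 and 303 for mt-Nd4l over all samples, depth limits these genes, while the nuclear members stood on 333062 to 806621 counts per sample.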

Other observations

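The ribosomal RNAs of the mitochondrion, which like the mt- mRNAs are not part of tagged ribosomes, were measured beside them. mt-Rnr2 was at 110.3, 87.6, 113 and 91.0 TPM with CNO and at 76.8, 91.4, 111 and 123 TPM with vehicle. mt-Rnr1 was at 32.4 ± 5.47 TPM with CNO and 32.7 ± 7.03 TPM with vehicle (SD, n = 4). Both overlapped between the groups and both were lowest in vehicle replicate 1. Mitochondrial tRNAs held 0 to 4 counts in a sample.

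Among the markers of other interneurons, Lamp5, which marks neurogliaform cells, was lower in every CNO sample, as were 1.63% of all genes (unadjusted p = 0.0139, edgeR adjusted p = 0.817). With Reln (unadjusted p = 0.048), 2 of 7 of these markers had an unadjusted p under 0.05, where 4.09% of all genes did, and none passed the adjusted edgeR test.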
